A study of Cenococcum geophilum 1.58 with 6 samples.

Results

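The genes described here are 204 genes of *Cenococcum geophilum* strain 1.58 whose transcript level was lower in the ectomycorrhiza (ECM) formed with poplar roots than in free-living mycelium (FLM). They were chosen by their TPM values (a level per gene length that is scaled to the same total in every library). A gene was taken if its highest TPM in the 3 ECM libraries was at most 0.4 times its lowest TPM in the 3 FLM libraries, and if it had at least 5 TPM in each FLM library. Of all 14748 genes, 219 met both limits. The 15 of them in the study's list of secreted proteins regulated in pine or poplar ECM were left out. Secreted proteins outside that list were kept. The 204 members are 1.90% of the 10728 genes that met the FLM limit. Since both groups of libraries were used to choose the members, every difference between ECM and FLM in a member is given below as a description. No p-value is given for a member, and nothing is read from how many pass the limits of the count test.

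The ECM libraries came from root tips of the hybrid poplar *Populus tremula x alba*, clone INRA 717-1B4, colonised in Petri dishes by *C. geophilum* 1.58 and sampled at day 60. The FLM libraries came from pure cultures of the same strain, kept under the same conditions without a plant, also at day 60. Each group had 3 libraries that the labels call biological replicates, and the fungus was the same single isolate in both groups. The counted genes are fungal, so the root tissue in the ECM samples adds no gene to the tables. The RNA came from whole root tips or whole mycelium: fewer hyphae of a given kind and less transcript in each hypha cannot be told apart. No marker gene of mantle, Hartig net or free-living hyphae is annotated in the tables used here, so the tissue labels were not checked against markers.

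*C. geophilum* is an ascomycete with dark, melanised hyphae and one of the most widespread ectomycorrhizal fungi. In an ectomycorrhiza the fungus wraps the root tip in a mantle and grows between the outer root cells as the Hartig net, where it passes mineral nutrients and water to the tree and receives sugars in return. Free-living mycelium has no such supply and takes its carbon from the medium. The change between these 2 ways of life is accompanied in ectomycorrhizal fungi by broad changes in transcript levels, of which secreted proteins and transporters are the parts best known. The annotation used here gives the members no protein names, and the only one described in the study's tables is Cenge3:678785, a small secreted protein with a cupredoxin domain, the fold of blue copper proteins. No role is therefore given for the others.

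The depth and composition of the libraries bear on every value below. Library totals were 11197509 to 14396613 counts in ECM and 52305281 to 54586073 counts in FLM. The most abundant gene alone took 8.86 to 27.4% of the TPM of an ECM library, against 1.12 to 2.05% of an FLM library, and the median TPM of all genes was 11.6, 12.6 and 20.7 in ECM replicates 1 to 3, against 24.4 to 25.3 in FLM. TPM of most genes were thus lower in ECM: all ECM libraries were below all FLM libraries in 7442 of the 12692 genes tested (58.6%). With TMM normalization, which scales libraries so that most genes do not shift, the median log2 fold change (ECM over FLM) of the genes tested was 0.01. The 22 conserved eukaryotic genes of the study's list had median TPM of 24.4 to 43.2 in ECM and 51.7 to 67.6 in FLM, while their median normalized counts (counts scaled to library size after TMM) were 57.0 to 62.2 in ECM and 54.6 to 62.2 in FLM. The log2 fold changes of the 22 genes ran from -0.89 to 1.85, and 1 of them passed the limits for a call given below. None of these 22 genes is a member.

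The members were low in every ECM library on both scales, which follows from the rule. The median TPM of the 204 genes was 8.33, 10.03 and 12.0 in ECM replicates 1, 2 and 3, against 48.6, 45.1 and 45.1 in FLM replicates 1, 2 and 3. Together they made up 0.562, 0.696 and 0.859% of the TPM in ECM, against 3.57, 3.20 and 3.70% in FLM. As a share of raw counts they made up 0.8004, 0.899 and 0.893% in ECM, against 3.15, 2.88 and 3.15% in FLM. Their median normalized count was 11.8, 11.8 and 9.71 in ECM and 30.6, 30.0 and 27.4 in FLM.

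Part of the distance in TPM was shared by all genes. Relative to the mean of the FLM libraries, the median log2 TPM of the members was -2.51, -2.26 and -1.84 in ECM replicates 1, 2 and 3, and that of all genes tested was -1.17, -0.95 and -0.36. After TMM normalization the same medians were -1.32, -1.33 and -1.49 for the members and 0.00, -0.02 and -0.02 for all genes tested. The 3 ECM libraries differed less from each other on this scale, and the members lay below the bulk of genes in each. ECM replicate 1 was run on the same sequencer model as the FLM libraries, and ECM replicates 2 and 3 on a newer one. With sequencer model as a term in the fit, the members' median log2 fold change was -1.33, against -1.36 without it. In that fit only ECM replicate 1 shares its sequencer model with FLM. The part of the sequencer model in the values of single libraries was not tested.

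**Figure D1:**
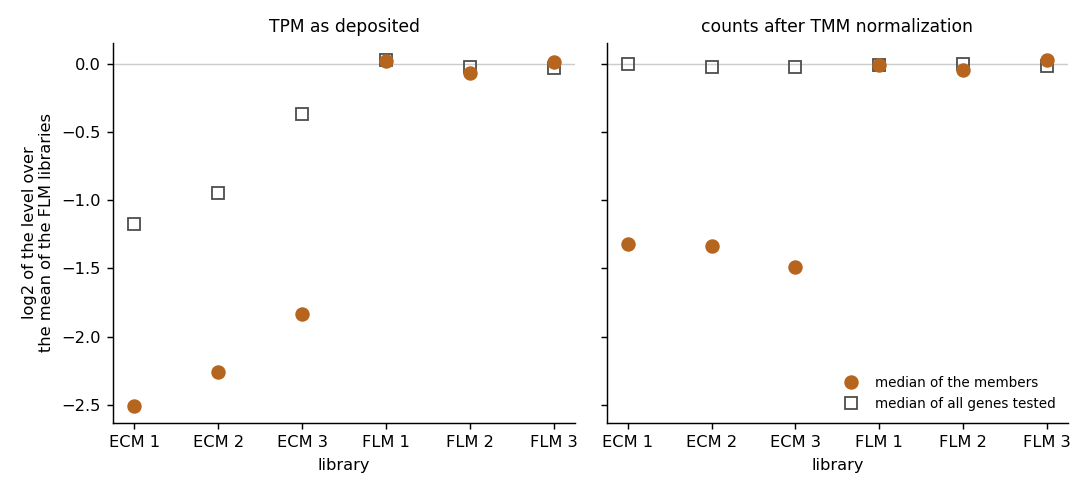
Median log2 level over the mean of the FLM libraries in each library (ECM 1 to 3, then FLM 1 to 3), for the members (filled circles) and for all genes tested (open squares). Left, TPM as deposited, where the members lie between -2.51 and -1.84 and all genes between -1.17 and -0.36 in ECM; right, counts after TMM normalization, where the members lie between -1.49 and -1.32 and all genes near 0.

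All 204 members had enough counts to be tested with edgeR, and all had lower normalized counts in every ECM library than in any FLM library. The rule in TPM fixed this separation in advance. Such complete separation in this direction was seen in 2722 of the 12692 genes tested (21.4%). Of the members, 178 had a log2 fold change under -1 with a Benjamini-Hochberg adjusted p under 0.05, and 26 did not. Over all genes tested, 3.28% were called lower in ECM and 9.94% higher. With library totals alone in place of TMM the split turned to 1217 genes lower and 838 higher. The counts of members called and not called follow from the choice of the members on the same libraries, and nothing is read from them. Of the 26, 23 had a log2 fold change above -1 and 7 an adjusted p over the limit, with 4 in both classes.

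The log2 fold changes of the members ran from -5.62 to -0.68, with a median of -1.36 and quartiles of -1.66 and -1.11. In TPM, the mean of FLM was 2.83 to 105 times the mean of ECM, with a median of 4.46. The ratio that chose the members, the highest ECM TPM over the lowest FLM TPM, had a median of 0.34. It was over 0.3 in 143 members, at most 0.2 in 17 and under 0.1 in 2. Most members thus lie near the limit of the rule. If the same ratio is taken per length and after TMM normalization, its median is 0.51 (range 0.087 to 0.874), with 32 members at or under 0.4 and 94 at or under 0.5. A difference of the size the rule asks for was therefore present in TPM for all members and on the composition-corrected scale for 32 of them. The direction was the same for all 204 on that scale, but the rule fixed this in advance. The shift between the scales was too small to reverse a ratio of 0.4 or less.

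**Figure D2:**
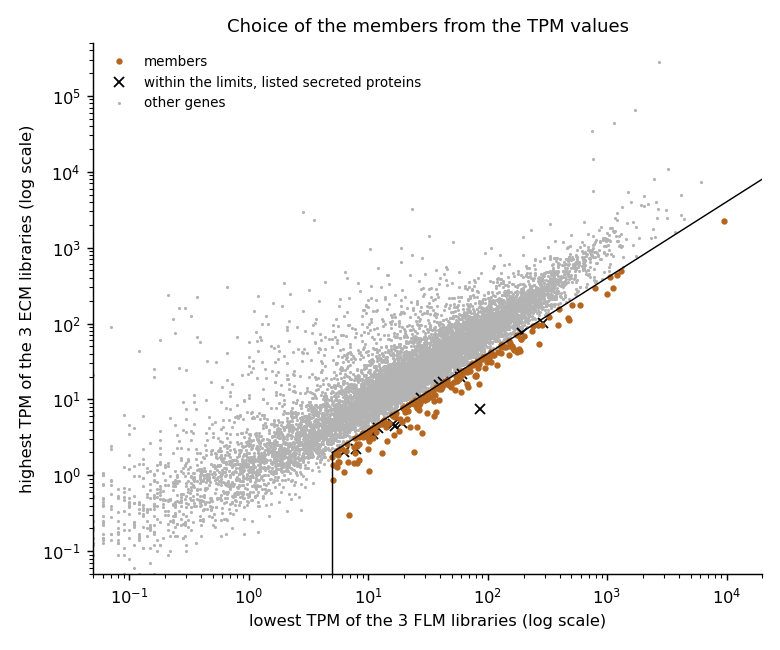
Highest TPM of the 3 ECM libraries against lowest TPM of the 3 FLM libraries for each gene (log scales, genes at 0 on either axis not drawn), with the limits of 5 TPM and of 0.4 times the FLM value as lines. The 204 members (filled) lie mostly just under the ratio line, and crosses are the 15 listed secreted proteins within the limits.

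Genes on either side of the limit had much the same values. Just inside, Cenge3:201517 had 21.1, 26.0 and 36.7 TPM in ECM and 91.9, 92.6 and 96.0 TPM in FLM. Cenge3:674289 had 26.5, 33.0 and 42.3 TPM in ECM and 106, 111 and 109 TPM in FLM, and Cenge3:679416 had 4.41, 4.46 and 5.41 TPM in ECM and 13.5, 16.5 and 21.6 TPM in FLM. Just outside, Cenge3:423862 had 46.9, 57.2 and 44.6 TPM in ECM and 143, 181 and 163 TPM in FLM. Cenge3:603565 had 11.4, 13.2 and 15.7 TPM in ECM and 55.1, 39.2 and 40.2 TPM in FLM, and Cenge3:640011 had 32.1, 46.1 and 56.0 TPM in ECM and 149, 140 and 171 TPM in FLM. Groups did not overlap in any of these 6 genes, and the log2 fold changes were -1.03 to -0.89 for the 3 inside and -0.99 to -0.84 for the 3 outside.

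The member with the lowest ratio was Cenge3:607357 (genome version 2.0, scaffold 13, positions 520638 to 521808, 1171 bp). It had 0.26, 0.30 and 0.00 TPM in ECM, against 25.7, 26.2 and 6.88 TPM in FLM. In counts this was 5, 5 and 0 in ECM and 1133, 1199 and 286 in FLM. The ECM libraries were all near the limit of detection, and FLM replicate 3 lay well below the other FLM libraries. Its log2 fold change of -5.62 was the lowest of all members, and it ran from -6.04 to -5.02 over the alternatives that gave a value. None of them left out an FLM replicate, since the gene then failed the count filter.

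Cenge3:692263 (scaffold 2, positions 3663518 to 3664648) was the other member with a ratio under 0.1. It had 0.60, 1.79 and 2.0 TPM in ECM and 39.1, 24.0 and 29.2 TPM in FLM, so that the highest ECM library lay more than 10 times below the lowest FLM library. Its log2 fold change was -3.65, and with sequencer model as a term in the fit it was -4.49. ECM replicate 1 was the lowest of the 3 ECM libraries for this gene.

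The next members by ratio kept the same order of levels. Cenge3:664983, at 3592 bp one of the longer members, had 0.69, 1.07 and 1.14 TPM in ECM and 19.7, 15 and 10.2 TPM in FLM. Cenge3:612653 had 2.06, 3.26 and 3.65 TPM in ECM and 39.2, 28.4 and 34.4 TPM in FLM. Cenge3:678812 had 1.85, 1.69 and 1.98 TPM in ECM and 32.0, 18.4 and 12.96 TPM in FLM. In these 3 genes the ECM libraries stood close together, and the FLM libraries of Cenge3:678812 spread more than 2-fold. Their log2 fold changes were -3.15, -2.71 and -2.67.

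Cenge3:534449 had 2.65, 4.37 and 3.21 TPM in ECM and 32.6, 25.4 and 28.8 TPM in FLM, with a log2 fold change of -2.23. Cenge3:678796 had 1.12, 1.26 and 1.46 TPM in ECM and 8.45, 8.01 and 11.6 TPM in FLM, with a log2 fold change of -2.04. Cenge3:584088 had 0.58, 0.88 and 0.36 TPM in ECM and 6.77, 5.08 and 5.76 TPM in FLM, with a log2 fold change of -2.32. The last of these rests on 3, 4 and 1 counts in ECM, against 81, 63 and 65 in FLM, and together with Cenge3:607357 it is 1 of 2 members at or under 1 FPKM (the study's limit for an expressed gene) in all ECM libraries. The remaining 2 of the 10 members with the lowest ratio, Cenge3:113698 and Cenge3:356304, stand in runs of neighbouring members and are described with these.

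**Figure D3:**
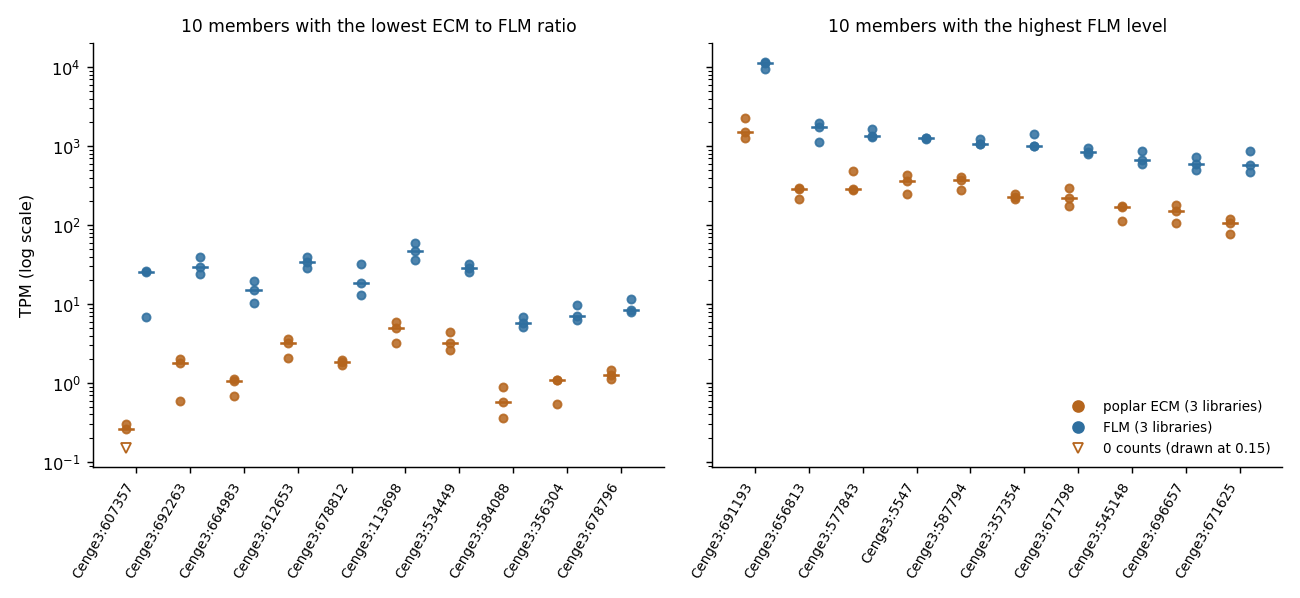
TPM in each library (log scale) for the 10 members with the lowest ratio of ECM to FLM (left) and the 10 with the highest FLM level (right); points are libraries, bars are group medians, and the open triangle is a library with 0 counts. In all 20 genes the 3 ECM points lie below the 3 FLM points, from the largest distance in Cenge3:607357 to the smallest in Cenge3:587794.

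Few members were lost from the ECM libraries altogether. In ECM, 12, 11 and 13 members had fewer than 10 counts in replicates 1, 2 and 3, and 10 members had fewer than 10 in all 3. The lowest count of a member in any FLM library was 44. At 3 counts, the level taken as the floor, an ECM library reaches down to a CPM of 0.208 to 0.268 and an FLM library to one of 0.055 to 0.057. In each ECM library 1 member had no count, a different one each time: Cenge3:607357 in replicate 3, Cenge3:533954 in replicate 2 and Cenge3:669223 in replicate 1. Cenge3:669223 had 0, 1 and 4 counts in ECM and 133, 96 and 44 in FLM. Of the 204 members, 188 were above 1 FPKM in all 3 ECM libraries, and all 204 in all 3 FLM libraries. Most members were thus still measured in ECM, at a lower level.

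The members covered a wide range of levels. In ECM the median TPM of a member ran from 0.26 to 1500, with a median of 9.5. In FLM it ran from 5.58 to 11151, with a median of 46.1, against 40.9 for the 10728 genes at or over the FLM limit. By FLM level, 21 members lay under 10 TPM, 126 from 10 to 100 TPM, 51 from 100 to 1000 TPM and 6 above. The median log2 fold change was -1.52, -1.33, -1.38 and -1.37 in these classes. Members were 2.40, 1.65, 2.41 and 7.06% of the genes at or over the FLM limit in the same classes, the last being 6 of 85 genes.

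The most abundant member was Cenge3:691193 (1148 bp). It had 1254, 1500 and 2261 TPM in ECM, against 11151, 9601 and 11631 TPM in FLM. In counts this was 23302, 24663 and 22912 in ECM and 481751, 429997 and 473695 in FLM, or 0.162, 0.176 and 0.205% of an ECM library and 0.899, 0.788 and 0.906% of an FLM library. By counts it ranked 30, 29 and 21 in ECM replicates 1, 2 and 3, and it was the gene with the most counts in all 3 FLM libraries. By TPM it ranked 41, 42 and 24 in ECM and 1, 3 and 1 in FLM. This 1 gene made up 30.9% of the summed FLM TPM of the members. Its log2 fold change was -1.92, with a range over the alternatives of -2.26 to -1.86.

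Cenge3:656813 came next in FLM level. It had 214, 293 and 288 TPM in ECM and 1762, 1121 and 1983 TPM in FLM, with a log2 fold change of -1.79. It ranked 401, 388 and 445 by TPM in ECM, against 30, 62 and 29 in FLM. FLM replicate 2 was the lowest FLM library for this gene, and the ratio was 0.261.

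The other members above 1000 TPM in FLM had smaller fold changes. Cenge3:577843 had 277, 285 and 491 TPM in ECM and 1314, 1351 and 1630 TPM in FLM, with a log2 fold change of -1.26. Cenge3:5547 had 248, 432 and 358 TPM in ECM and 1262, 1219 and 1265 TPM in FLM, with a log2 fold change of -1.03. Cenge3:587794 had 276, 369 and 409 TPM in ECM and 1243, 1077 and 1060 TPM in FLM. Its log2 fold change of -0.87 was the smallest in size among the 10 most abundant members and under the limit used for a call. Cenge3:357354 had 216, 230 and 246 TPM in ECM and 1005, 1005 and 1415 TPM in FLM, with a log2 fold change of -1.47.

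The last 4 of the 10 most abundant members lay between 468 and 945 TPM in FLM. Cenge3:671798 had 220, 296 and 172 TPM in ECM and 840, 790 and 945 TPM in FLM. Cenge3:545148 had 112, 175 and 170 TPM in ECM and 669, 878 and 595 TPM in FLM. Cenge3:696657 had 107, 151 and 177 TPM in ECM and 719, 505 and 595 TPM in FLM, and Cenge3:671625 had 77.2, 106 and 119 TPM in ECM and 468, 584 and 874 TPM in FLM. Groups did not overlap in any of them, and the log2 fold changes were -1.01, -1.42, -1.27 and -1.88. The 5 most abundant members held 46.5% and the 10 most abundant 57.9% of the members' summed FLM TPM.

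Cenge3:678785, the cupredoxin protein, was a member close to the limit. It had 18.8, 24.6 and 34.5 TPM in ECM and 87.3, 93.3 and 87.8 TPM in FLM. The ratio was 0.395 and the log2 fold change -1.01. This gene is named for its annotation and not for its values.

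Members differed in how evenly they were expressed within a group. In normalized counts the highest ECM library was at the median member 1.45 times the lowest, and the highest FLM library 1.30 times the lowest. For the genes tested that are not members these medians were 1.48 in ECM and 1.24 in FLM. In 13 members the FLM libraries spread more than 2-fold, and FLM replicate 3 was the lowest of the 3 in 9 of these. Cenge3:684499 had 0.71, 1.17 and 1.58 TPM in ECM and 28.5, 26.9 and 8.39 TPM in FLM, and Cenge3:673421 had 6.79, 6.92 and 13.2 TPM in ECM and 108, 88.6 and 35.0 TPM in FLM. Both were, like Cenge3:607357, low in FLM replicate 3 and lower still in ECM. They were picked after their values were seen, as were the next ones. In the other direction, Cenge3:53699 had 4.08, 4.26 and 5.45 TPM in ECM and 18.5, 19.8 and 37.6 TPM in FLM, with FLM replicate 3 the highest.

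In ECM, 34 members spread more than 2-fold and 5 more than 3-fold between libraries, the 3 members with a library at 0 counts apart. Cenge3:665311 had 9.73, 24.3 and 9.96 TPM in ECM and 96.4, 76.2 and 68.4 TPM in FLM, so that replicate 2 stood above the other ECM libraries. Cenge3:684555 had 57.2, 70.4 and 32.6 TPM in ECM and 230, 177 and 207 TPM in FLM, with replicate 3 the lowest. In TPM the highest ECM library was replicate 3 for 153 members, replicate 2 for 45 and replicate 1 for 6. In normalized counts it was replicate 3 for 29 members, replicate 2 for 90 and replicate 1 for 85. For the tested genes outside the members the counts were 9618, 2477 and 393 in TPM and 4908, 4629 and 2951 in normalized counts. The TPM order of the ECM libraries thus followed the shift of all genes, and in normalized counts ECM replicate 3 was the lowest ECM library in 116 of the 204 members. In consequence the rule was set by ECM replicate 3 more than by any other library: without it 1882 genes met the limits, against 213 and 248 without ECM replicate 1 or 2.

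Members were shorter than other genes expressed in FLM. The length that the FPKM values imply was the gene's whole span in the annotation, within 1%, for 203 members and for 97.3% of the 13471 placed genes with an implied length, so lengths here include any introns. The median length was 1109 bp for the members, against 1571 bp for all genes at or over the FLM limit. Under 500 bp there were 34 members (16.7%), against 5.70% of those genes, and at 2000 bp or more 29 members (14.2%), against 33.4%. Read the other way, the members were 5.56, 3.04, 1.79 and 0.81% of the genes under 500 bp, of 500 to under 1000 bp, of 1000 to under 2000 bp and of 2000 bp or more. Length was not used by the rule as such. It is part of TPM and so of the 5 TPM limit, but it cancels in the ratio of a gene's TPM between libraries. Short genes have fewer counts at the same TPM and wider spread.

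The difference in length was larger among the members than in the count test. In the same 4 length classes the members had median log2 fold changes of -1.48, -1.28, -1.34 and -1.46, and the genes at or over the FLM limit of -0.01, 0.21, 0.05 and -0.18. Genes called lower in ECM by edgeR were 6.21, 3.40, 3.24 and 2.74% of these classes, and genes called higher 8.99, 12.8, 8.48 and 4.66%. These shares were not compared by a test, and the genes called lower include members. The part of length in the choice of members was not tested.

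**Figure D4:**
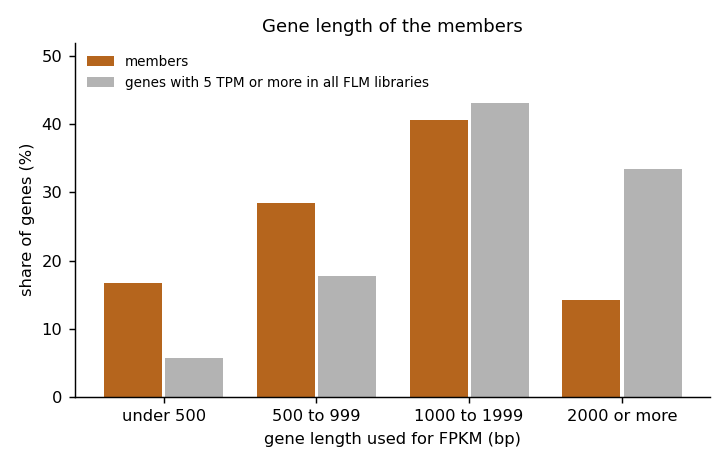
Share of genes (%) in 4 classes of gene length for the members and for the 10728 genes with at least 5 TPM in all FLM libraries. The members hold 16.7% of their genes under 500 bp and 14.2% at 2000 bp or more, against 5.70% and 33.4% of all genes at that FLM level.

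The shortest members carried some of the lowest counts. Cenge3:555970 (150 bp) had 5, 10 and 3 counts in ECM and 95, 70 and 82 in FLM. Cenge3:599402 (153 bp) was better measured, with 89, 58 and 59 counts in ECM and 1188, 1407 and 949 in FLM, or 35.9, 26.5 and 43.7 TPM in ECM and 206, 236 and 175 TPM in FLM. The longest member, Cenge3:728855 (5338 bp), had 15.1, 15.2 and 33.0 TPM in ECM and 117, 98.1 and 104 TPM in FLM.

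The members were spread over the genome. All 204 could be placed in the RefSeq annotation of genome version 2.0, on 72 of its 149 scaffolds that hold genes. Scaffold numbers are by order in the annotation, which gives no names. They and the positions matched the study's own for all 22 core genes, the highest on scaffold 73, and numbers beyond that are by order alone. Scaffolds 1 and 3 held 9 members each, of 528 and 545 genes. Gene-sparse surroundings, taken as the study does as an intergenic flank over about 6.5 kb, were found for 62 members (30.4%), against 32.9% of all placed genes and 23.8% of those at or over the FLM limit. A gene that overlaps a neighbour was found in 26 members (12.7%), against 10.9% of all placed genes. Counts were taken on the reverse strand only, and overlapping genes on 1 strand could still share reads.

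Some members stood next to each other. There were 14 runs of neighbouring members, 3 of 3 genes and 11 of 2 genes, holding 31 members (15.2%), while 173 members stood alone. The share in runs was not compared with that of other genes, and nothing is read from it. The 17 gaps inside the runs had a median of 330 bp, and in 3 of them the genes overlapped. Nothing on position was used in choosing the members.

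The run with the most abundant member lies on scaffold 86, between positions 129218 and 133531. It holds Cenge3:691193, then after 330 bp Cenge3:356371 and, overlapping this by 79 bp, Cenge3:356304. Cenge3:356371 had 0.93, 0.67 and 1.46 TPM in ECM and 12.7, 9.84 and 7.57 TPM in FLM. Cenge3:356304 had 1.08, 0.54 and 1.10 TPM in ECM and 9.69, 7.05 and 6.32 TPM in FLM. The 2 genes behind Cenge3:691193 thus lay far below it in both groups, and reads from their overlap may count for either. The log2 fold changes along the run were -1.92, -2.53 and -2.23. The neighbour on the near side, Cenge3:670819, had 40.2, 47.3 and 56.7 TPM in ECM and 86.9, 72.4 and 61.0 TPM in FLM, with a log2 fold change of 0.20 (SE 0.18) and an adjusted p of 0.44 in edgeR's quasi-likelihood test. The neighbour on the far side, Cenge3:670824, lies 18575 bp away and had no counts.

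On scaffold 21, between positions 1644791 and 1648366, Cenge3:611109, Cenge3:611111 and Cenge3:113698 followed each other with gaps of 400 and 41 bp. Cenge3:611109 had 2.07, 3.32 and 4.80 TPM in ECM and 19.1, 12.9 and 15.8 TPM in FLM. Cenge3:611111 had 1.05, 3.04 and 4.29 TPM in ECM and 38.6, 22.2 and 22.9 TPM in FLM, and Cenge3:113698 had 3.23, 5.98 and 5.03 TPM in ECM and 59.9, 35.8 and 47.2 TPM in FLM. In TPM all 3 were highest in FLM replicate 1 and lowest in ECM replicate 1. In normalized counts Cenge3:113698 was lowest in ECM replicate 3, with 5.71, 8.89 and 4.99 in ECM replicates 1, 2 and 3. The log2 fold changes were -1.48, -2.61 and -2.50, and that of Cenge3:611111 was -3.54 with sequencer model as a term. On either side, Cenge3:659941 had a log2 fold change of 1.00 (SE 0.38) with an adjusted p of 0.078 and Cenge3:677423 one of 0.05 (SE 0.17) with an adjusted p of 0.86 (edgeR).

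On scaffold 50, between positions 259136 and 260902, the run of Cenge3:507598, Cenge3:469248 and Cenge3:581185 had gaps of 153 and 39 bp, and its first 2 genes are 273 and 279 bp long. Cenge3:507598 had 4.07, 5.88 and 8.71 TPM in ECM and 23.9, 24.4 and 36.6 TPM in FLM. Cenge3:469248 had 3.99, 6.26 and 7.31 TPM in ECM and 26.9, 29.7 and 35.5 TPM in FLM, and Cenge3:581185 had 6.88, 6.96 and 10.7 TPM in ECM and 27.8, 30.6 and 31.3 TPM in FLM. The levels of the 3 genes were alike in each library. The log2 fold changes were -1.43, -1.60 and -1.08, against -0.03 (SE 0.21, adjusted p 0.92) for the neighbour Cenge3:581091 and -0.33 (SE 0.18, adjusted p 0.19) for the neighbour Cenge3:643842 in edgeR. In none of the 3 runs of 3 did a tested gene next to the run pass the limits for a call.

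**Figure D5:**
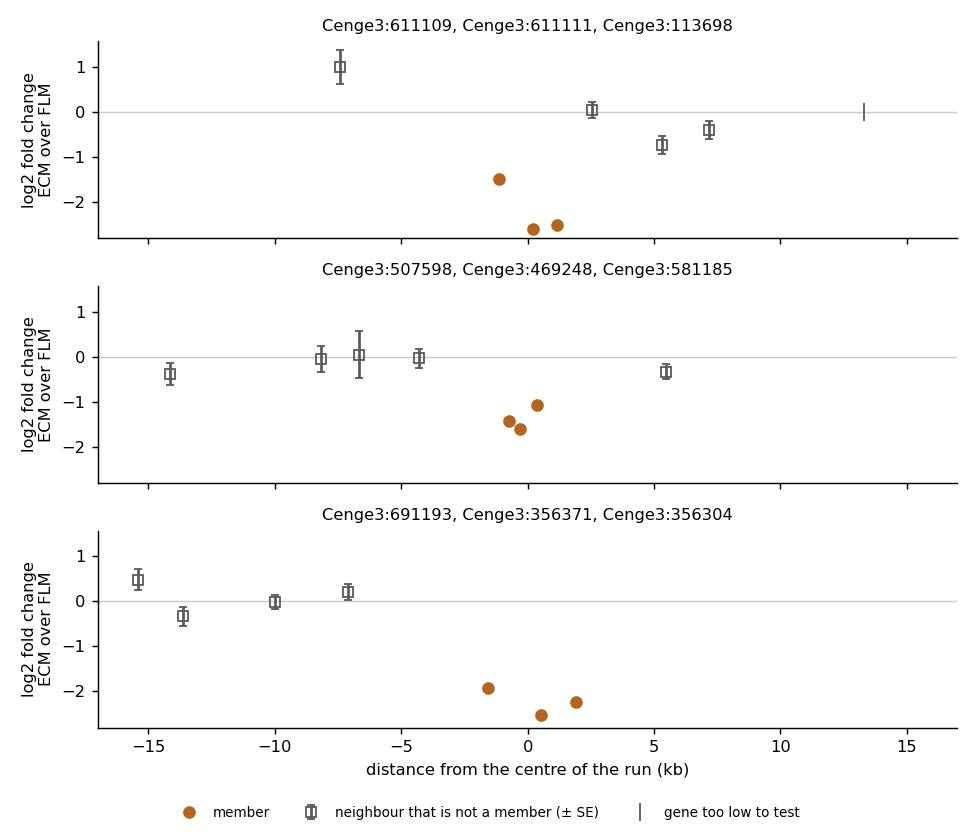
Log2 fold change (ECM over FLM, edgeR) of the genes in and around the 3 runs of 3 members, against distance from the centre of the run (kb); filled circles are members, open squares neighbours with their SE, and ticks at 0 genes without enough counts. Members lie between -2.61 and -1.08 and the neighbours next to them between -0.33 and 1.00.

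In the 11 runs of 2, the genes of a pair were unlike in level in some runs and alike in others. On scaffold 65, Cenge3:587589 had 24.5, 13.2 and 42.3 TPM in ECM and 158, 139 and 122 TPM in FLM, 400 bp from Cenge3:587794, one of the 10 most abundant members. On scaffold 87, Cenge3:358316 had 36.8, 62.0 and 39.5 TPM in ECM and 199, 190 and 205 TPM in FLM, and it overlapped Cenge3:358351 by 70 bp, which had 7.10, 8.97 and 8.05 TPM in ECM and 38.1, 25.0 and 25.9 TPM in FLM. On scaffold 22, Cenge3:687297 had 13.02, 15.3 and 26.0 TPM in ECM and 114, 82.3 and 101 TPM in FLM, 1066 bp from Cenge3:660247 with 6.01, 8.36 and 12.2 TPM in ECM and 50.3, 41.0 and 31.7 TPM in FLM. These 3 pairs are given as examples and were picked with their values known. Genes of a pair shared direction by the rule, but not size: the log2 fold changes were -1.64 and -0.87, -1.24 and -1.03, and -1.70 and -1.45.

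Genes next to a member that are not members themselves were tested. The rule bears on this set, since it took members out of it by values of the same libraries. Shares of calls among them and among all non-members are therefore not independent of the rule. Cenge3:651900 and Cenge3:650072, named below, narrowly missed the ratio limit, at 0.404 and 0.406. Of 370 such neighbours 317 had enough counts. In edgeR 18 of them (5.68%) were called lower in ECM and 24 (7.57%) higher, against 1.91% lower and 10.1% higher among all 12488 tested genes that are not members. The median log2 fold change was -0.14 for the neighbours and 0.02 for the genes that are not members. The share of neighbours called lower was above that of all non-members under all 14 alternatives, with 1 to 56 neighbours called. The difference between these shares was not tested. The count of 18 was 32 without ECM replicate 3, 11 without FLM replicate 3, 5 with sequencer model as a term and 1 when edgeR tested against the fold limit itself (glmTreat).

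The neighbours called lower lengthened 2 of the runs of members and adjoined 16 members that stood alone. Taken with them, 30 stretches of 2 or 3 genes held 47 members and 18 neighbours, and no stretch was longer than 3. Stretches were set by gene order alone, and their genes were not always close. On scaffold 43 a member and its called neighbour lay 88712 bp apart, and on scaffold 18 they lay 17855 bp apart. On scaffolds 53 and 79 the called neighbour overlapped the member (gaps of -63 and -272 bp). Overlapping genes on the same strand could share reads, and this was not tested. On scaffold 3, Cenge3:651900 lies 664 bp beyond the members Cenge3:158716 and Cenge3:626686. It had 8.48, 12.0 and 20.1 TPM in ECM and 72.5, 49.7 and 83.3 TPM in FLM, with a log2 fold change of -1.60 (SE 0.22) and an adjusted p of 0.000467 in edgeR. The 2 members had log2 fold changes of -1.57 and -1.41. On scaffold 142, Cenge3:650072 follows the members Cenge3:599402 and Cenge3:599399 after 259 bp. It had 3.24, 3.03 and 8.72 TPM in ECM and 21.5, 27.6 and 22.8 TPM in FLM, with a log2 fold change of -1.58 (SE 0.25) and an adjusted p of 0.00124 in edgeR. Both neighbours stayed called under all 13 alternatives that give a fold change for them. Tested against the fold limit itself with edgeR's glmTreat, Cenge3:651900 stayed called (adjusted p 0.0418) and Cenge3:650072 did not (adjusted p 0.0905).

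Beside Cenge3:534449, one of the 10 members with the lowest ratio, Cenge3:683672 had 7.01, 9.75 and 14.7 TPM in ECM and 43.2, 34.1 and 59.1 TPM in FLM, with a log2 fold change of -1.36 (SE 0.22, edgeR adjusted p 0.00124). Beside Cenge3:231873, which had 1.45, 2.87 and 2.09 TPM in ECM and 24.1, 14.4 and 16.9 TPM in FLM, stands Cenge3:231871 from the study's list of regulated secreted proteins. Cenge3:231871 met both TPM limits and was left out of the members only as a listed gene. It had 3.33, 4.45 and 2.59 TPM in ECM and 24.8, 16.6 and 25.6 TPM in FLM, with a log2 fold change of -1.79 (SE 0.34, edgeR adjusted p 0.00348). The call on Cenge3:231871 was lost with sequencer model as a term (adjusted p 0.11), and those on Cenge3:231871 and Cenge3:683672 with glmTreat (adjusted p 0.0924 and 0.239). These 4 neighbours were named after their values were seen.

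Other members stood beside genes that were higher in ECM. There were 23 such members with 24 neighbours called higher, 9 of them less than 1000 bp away. The 24 were 7.57% of the neighbours tested. That share was below the 10.1% called higher among all tested genes that are not members, and the difference was not tested. On scaffold 141, Cenge3:650065 had 18.8, 19.2 and 20.5 TPM in ECM and 54.2, 68.7 and 67.9 TPM in FLM. Its neighbour Cenge3:650061, 724 bp away, had 161, 212 and 247 TPM in ECM and 3.27, 2.89 and 2.21 TPM in FLM, with a log2 fold change of 7.01 (SE 0.24) and an adjusted p of 5.27e-08 in edgeR. The log2 fold change of the member was -0.86, so that the 2 genes differed in sign.

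On scaffold 73, the member Cenge3:327382 had 3.89, 4.01 and 9.10 TPM in ECM and 33.9, 23.0 and 30.6 TPM in FLM. The gene 1987 bp away, Cenge3:682064, which stands in the study's list of regulated secreted proteins, had 329, 727 and 666 TPM in ECM and 40.2, 38.2 and 28.3 TPM in FLM, with a log2 fold change of 4.80 (SE 0.29, edgeR adjusted p 1.36e-06). On scaffold 90, the member Cenge3:671130 had 4.6, 5.20 and 5.48 TPM in ECM and 21.2, 26.8 and 29.4 TPM in FLM. Its neighbour Cenge3:701430, 836 bp away, had 115, 134 and 109 TPM in ECM and 33.6, 30.1 and 24.6 TPM in FLM, with a log2 fold change of 2.89 (SE 0.26, edgeR adjusted p 2.42e-05). Groups did not overlap in any gene of these pairs. The calls on the 3 raised neighbours, which were picked after their values were seen, held under all 13 alternatives and with glmTreat.

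Cenge3:607357, the member with the lowest ratio, and Cenge3:656813, one of the 10 with the highest FLM level, also had a neighbour called higher. Both neighbours were named after their values were seen. Beside Cenge3:607357, at 3330 bp, Cenge3:419009 had 3.29, 5.69 and 3.01 TPM in ECM and 2.07, 2.64 and 3.40 TPM in FLM, with a log2 fold change of 1.45 (SE 0.41, edgeR adjusted p 0.026). Beside Cenge3:656813, at 6992 bp, Cenge3:656820 had 4.86, 1.78 and 2.65 TPM in ECM and 1.36, 1.47 and 1.74 TPM in FLM, with a log2 fold change of 1.95 (SE 0.51, edgeR adjusted p 0.018). TPM of the groups overlapped for Cenge3:419009, and ECM replicate 1 stood above the rest for Cenge3:656820. Both calls depended on the setting: the call was lost in 5 of 12 alternatives for Cenge3:419009 (adjusted p up to 0.17) and in 4 of 12 for Cenge3:656820 (adjusted p up to 0.11, without ECM replicate 1). Both were also lost with glmTreat.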

How the data were processed

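Reads were trimmed and filtered by the authors with BBDuk, mapped to the transcript set of genome version 2.0 and counted with featureCounts, keeping primary reverse-strand hits; the submitters' processing notes also name HISAT 0.1.4. The deposited counts are raw whole numbers. FPKM was computed by the authors from these counts, and the deposited TPM have the same sum, 1000000, in every library. Members were found from TPM. Members and lists were chosen with earlier results of these data known.

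The count test was edgeR 4.0.16 (R 4.3.3; TMM, quasi-likelihood) over 12692 genes that reached 10 counts in 3 or more libraries. A gene was called if its log2 fold change exceeded 1 in either direction and its Benjamini-Hochberg adjusted p over all these genes was under 0.05. Standard errors were derived from the fold change and the F statistic. The code was tested on simulated data. DESeq2 1.42.0 served as an alternative, and Python 3.11.15 with pandas 2.3.3 and matplotlib 3.10.9 made summaries and figures. Precision is limited by 3 libraries a group and by the depth of ECM (11197509 to 14396613 counts, against 52305281 to 54586073 in FLM). Named were the 10 members with the lowest ratio, the 10 with the highest FLM level, the 3 longest runs, and 3 genes on each side of the ratio limit; other genes were named after their values were seen. Lists of genes by protein name had been planned, but the annotation used here gives no protein names, so none was made.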

Additional observations from a re-analysis of the deposited data

How the results depend on the processing

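The 204 members depend on the scale of the values. With FPKM in place of TPM 71 genes met the rule, with TPM divided by the TMM factor 100, and with FPKM divided by the TMM factor 27, the last added after seeing the data; all were among the 204. A ratio limit of 0.3 gave 61 genes and one of 0.5 gave 546. Leaving out 1 library gave 213 to 1882 genes, the highest without ECM replicate 3, and a shorter list of libraries can only admit genes. The members' median log2 fold change, -1.36, was -1.70 with library totals alone and lay between -1.41 and -1.31 with 1 library left out, over 194 of the members where that was an FLM library, since the other 10 then failed the count filter. Of all genes tested, 416 were called lower and 1262 higher in ECM. Library totals alone gave 1217 lower and 838 higher, testing against the fold limit itself (glmTreat) 61 and 541, and sequencer model as a term 199 lower. With 1 library left out 322 to 572 were called lower and 1037 to 1422 higher. Of the neighbours, 18 were called lower and 24 higher; glmTreat gave 1 and 8, library totals alone 56 and 15, and sequencer model as a term 5 lower, and with 1 library left out 11 to 32 were called lower and 17 to 30 higher. These alternatives for neighbours were added after seeing the data. No named gene's fold change changed sign in the alternatives run for it, but lower calls outnumbered higher ones with library totals alone and, among neighbours, in 1 fit with a library left out (32 against 30, without ECM replicate 3). Deviations of same-numbered ECM and FLM libraries correlated weakly, at 0.03, 0.19 and 0.23, and those of unlike number at -0.225 to 0.0806. Of the 6 libraries, 5 correlated best with their own number, FLM replicate 1 being the exception. Whether the replicate numbers pair the libraries was thus not settled, and the main fit used no pairing. With a replicate block 432 genes were called lower and 1245 higher, and 19 and 25 of the neighbours. For genes with few counts depth in ECM sets the limit, and the cause of the other changes was not tested.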
